A study of Homo sapiens with 6 samples.

Results

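The 71 genes described here are neighbours on the long arm of chromosome 4. They were selected on their position, as protein-coding genes with a GENCODE 29 start (hg38) in 1 interval, and on an average level in the 6 libraries of 1 FPKM or more. FPKM is a fragment count scaled for exon length and sequencing depth. The first member, CENPC, starts at 67.47 Mb and the last, PPP3CA, at 101.02 Mb. They were taken from 137 protein-coding IDs of this interval and 32434 gene IDs in all. Of the 137, 63 had a mean under 1 FPKM, and 3 above it, MRPL1, MRPS18C and UNC5C, were left out by symbol. The interval itself was chosen by the FPKM of its genes, which were jointly higher in shMYT1 than in shNC, so the differences given for the members describe that choice and carry no test.

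The libraries came from SK-N-BE(2), an established human neuroblastoma line. Cells were infected for 24 h with lentivirus and held in puromycin for 48 h, in both groups as far as the labels say. The 3 shNC libraries (genotype control) carried a control hairpin, and the 3 shMYT1 libraries a hairpin against MYT1, a zinc-finger transcription factor gene of developing neurons. The genotype label and the design text of the second group say knockout while the treatment label says knockdown. Neither hairpin sequence is given, nor whether the replicates were separate cultures, so the spread between replicates may be technical.

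Genes that lie next to each other on a chromosome share DNA copy number and replication timing and can share chromatin, but need not share function. This stretch of chromosome 4 holds clusters of CXC chemokine genes, of UDP-glucuronosyltransferase genes, of milk, saliva and enamel protein genes and of alcohol dehydrogenase genes, each used in particular tissues. Between them lie housekeeping genes of RNA processing, vesicle traffic and cell division. DNA was not measured in these samples.

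MYT1, the targeted gene, read 5.73, 5.12 and 5.18 FPKM in the shNC libraries and 4.20, 4.13 and 4.36 FPKM in the shMYT1 libraries, which do not overlap. Its log2 difference was -0.28 with an adjusted p of 0.0102 by limma. Permuting the libraries exactly (two-sided) gave p = 0.1, and no smaller value is possible with 3 per group. The shNC libraries held 21.08 to 21.68 M fragments and the shMYT1 libraries 18.16 to 20.3 M. All 9 listed noradrenergic neuroblastoma markers were above 1 FPKM, the lowest being DBH at a mean of 8.04 FPKM, and their summed level was 2997 to 3162 FPKM in shNC and 2603 to 2711 FPKM in shMYT1, with 3 of 9 higher and 3 lower past the threshold. Of 7 fibroblast markers LUM averaged 76.2, THY1 32.4, COL1A1 25.2 and COL1A2 0.134 FPKM. The sum of the 7 was 168 to 173 FPKM in shNC and 124 to 128 FPKM in shMYT1, with LUM at 97.7 and 54.6 FPKM, and of the 6 tested 2 were higher and 3 lower. The 3 Schwann cell markers found summed to 2.08 to 2.24 FPKM in shNC and 2.55 to 3.25 FPKM in shMYT1. The 4 endothelial markers summed to at most 0.336 FPKM and the 2 immune markers found to at most 0.156 FPKM. The part of depth and of these markers in the member values was not tested. In bulk RNA, a change in the share of cells and a change in RNA per cell cannot be told apart.

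The jointly higher level did not span the whole interval. Among the 71 members the median ratio of mean FPKM, shMYT1 over shNC, was 1.14 (middle 50% of genes 1.03 to 1.2), against 1.00 (0.91 to 1.09) over the 14106 genes tested. Their widest gap lies between the starts of TIGD2 at 89.11 Mb and SMARCAD1 at 94.21 Mb, 5.1 Mb apart. The 58 members before that gap had a median ratio of 1.15 (middle 50% 1.09 to 1.22), and the 13 members after it 0.96 (0.93 to 1.02). The division at the gap was made after the values were seen. The jointly higher level by which the interval was chosen was thus not seen in the median of these 13, which is a description with no test. UNC5C, a netrin receptor gene left out by symbol, also lies beyond the gap but had a ratio of 1.13, with 22.9, 23.5 and 22.7 FPKM in shNC and 26.2, 26.1 and 25.9 FPKM in shMYT1.

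In 39 of the 71 members all 3 shMYT1 libraries lay above all 3 shNC libraries, against 20.5% of the genes tested. In 4 members all shMYT1 libraries lay below, against 21.8%, and 42.3% of the genes tested had groups that did not overlap in either direction. All 39 lay before the gap and all 4 after it. With limma, 29 members were higher and 2 lower at an adjusted p under 0.05, against 11.9% and 12.3% of the genes tested. The 29 were among the 58 before the gap and the 2 among the 13 after it. Since the choice of the interval used this contrast, nothing is read from these counts.

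**Figure D1:**
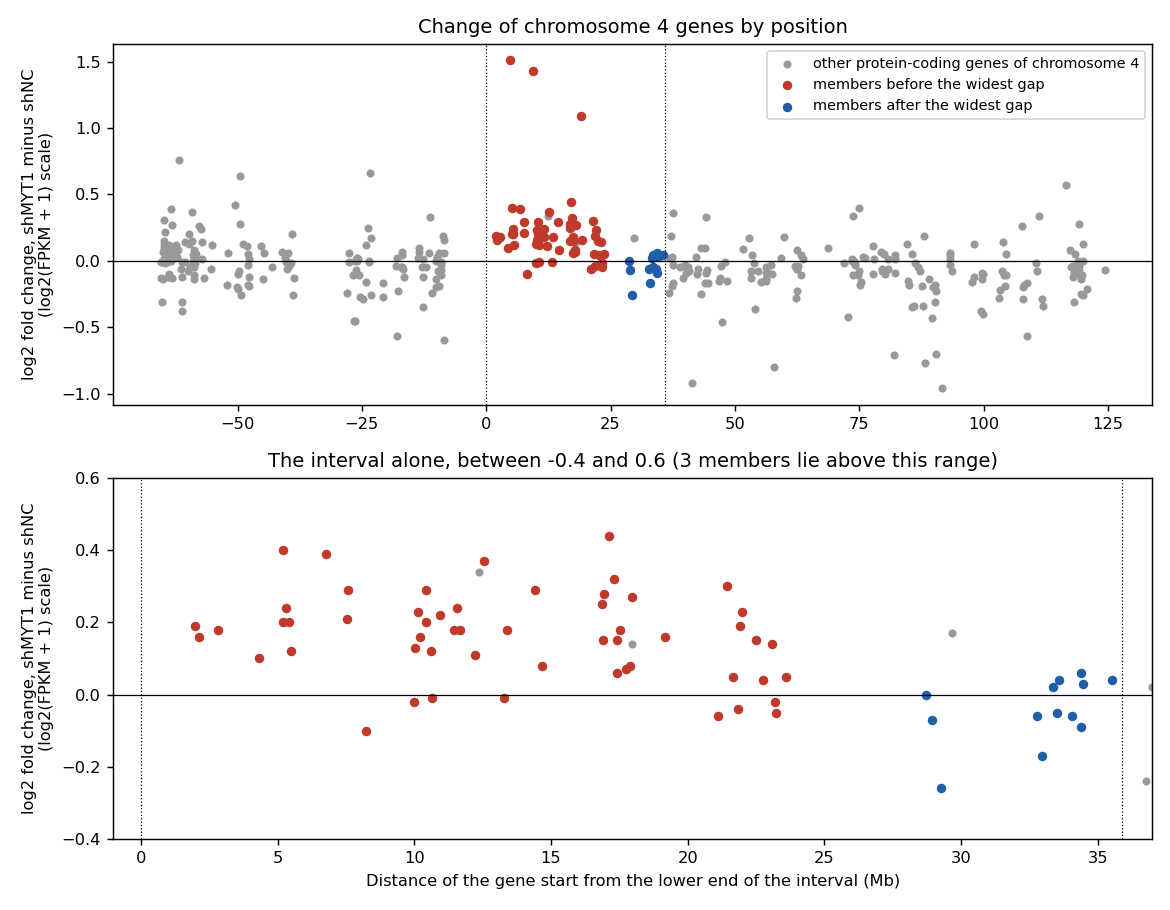
Log2 fold change (shMYT1 minus shNC, log2(FPKM + 1) scale) of protein-coding genes of chromosome 4 against the distance of their start from the lower end of the interval, in Mb, for the whole chromosome (top) and the interval (bottom); dotted lines mark its ends. Red points, the 58 members before the widest gap, have a median of 0.18, blue points, the 13 after it, a median of -0.05, and grey points are other genes of the chromosome.

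Along the chromosome the shift was fairly even and then faded. The median log2 fold change was 0.17 for the 4 members starting between 65 and 70 Mb, 0.24 for the 11 between 70 and 75 Mb, 0.18 for the 17 between 75 and 80 Mb and 0.17 for the 14 between 80 and 85 Mb. All 14 members of this last window had a positive value. Between 85 and 90 Mb the median of 12 members was 0.05, with 8 of 12 positive. It was -0.07 for the 3 members between 90 and 95 Mb and -0.05 for the 9 between 95 and 100 Mb. HERC3, a ubiquitin ligase gene starting at 88.59 Mb, was the last member with all shMYT1 libraries above all shNC libraries. It was at 1.43, 1.44 and 1.29 FPKM in shNC and at 1.62, 1.54 and 1.73 FPKM in shMYT1. Its adjusted p was 0.199 by limma, and its exons overlap a same-strand gene.

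The rest of chromosome 4 did not share the shift. The 139 tested protein-coding genes below 50 Mb had median 0.01 on the log2 scale, and the 27 from 50 Mb up to the interval -0.01. The 169 genes beyond its upper end had a median of -0.08, below the 0.00 of all genes tested. Of the 169, 68 had every shMYT1 library below every shNC library and 18 above, beside 21.8% and 20.5% of all genes tested. The 13 members beyond the gap, at -0.05, were thus nearer to the genes that follow the interval than to the 58 members before the gap, at 0.18. These medians are descriptions of neighbouring genes in the same 6 libraries. A joint shift of neighbouring genes was not particular to this interval. Tested protein-coding genes of chromosome 13 had a median of 0.21 and those of chromosome 8 a median of -0.2. The medians of the other autosomes and X ran from -0.05 to 0.08.

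The shift was seen in each shMYT1 library, which describes the choice of the interval and of the gap in these same libraries and carries no test. The median of the 58 members before the gap, as log2(FPKM + 1) minus the shNC mean, was 0.18, 0.21 and 0.15 in shMYT1 replicates 1, 2 and 3, and 0.02, 0.00 and -0.02 in the shNC replicates. Between 49 and 53 of the 58 lay above the shNC mean in each shMYT1 library, beside 6842 to 7015 of the 14106 genes tested. The 13 members after the gap had medians of -0.02, -0.02 and -0.05 in shMYT1. Over all genes tested the medians ran from -0.01 to 0.00. Summed over the 58 members, the level was 662 to 678 FPKM in shNC and 764 to 796 FPKM in shMYT1. Summed over the 13, it was 338 to 343 FPKM and 337 to 354 FPKM, which overlap.

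**Figure D2:**
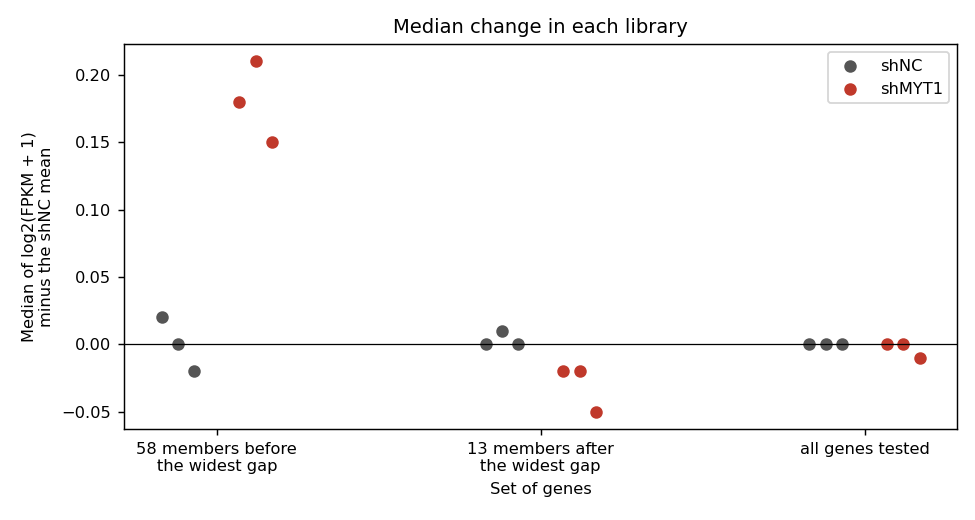
Median of log2(FPKM + 1) minus the shNC mean (vertical axis) in each of the 3 shNC (grey) and 3 shMYT1 (red) libraries, for 3 sets of genes. The shMYT1 libraries sit at 0.15 to 0.21 for the 58 members before the widest gap and at -0.05 to -0.02 for the 13 after it.

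**Figure D3:**
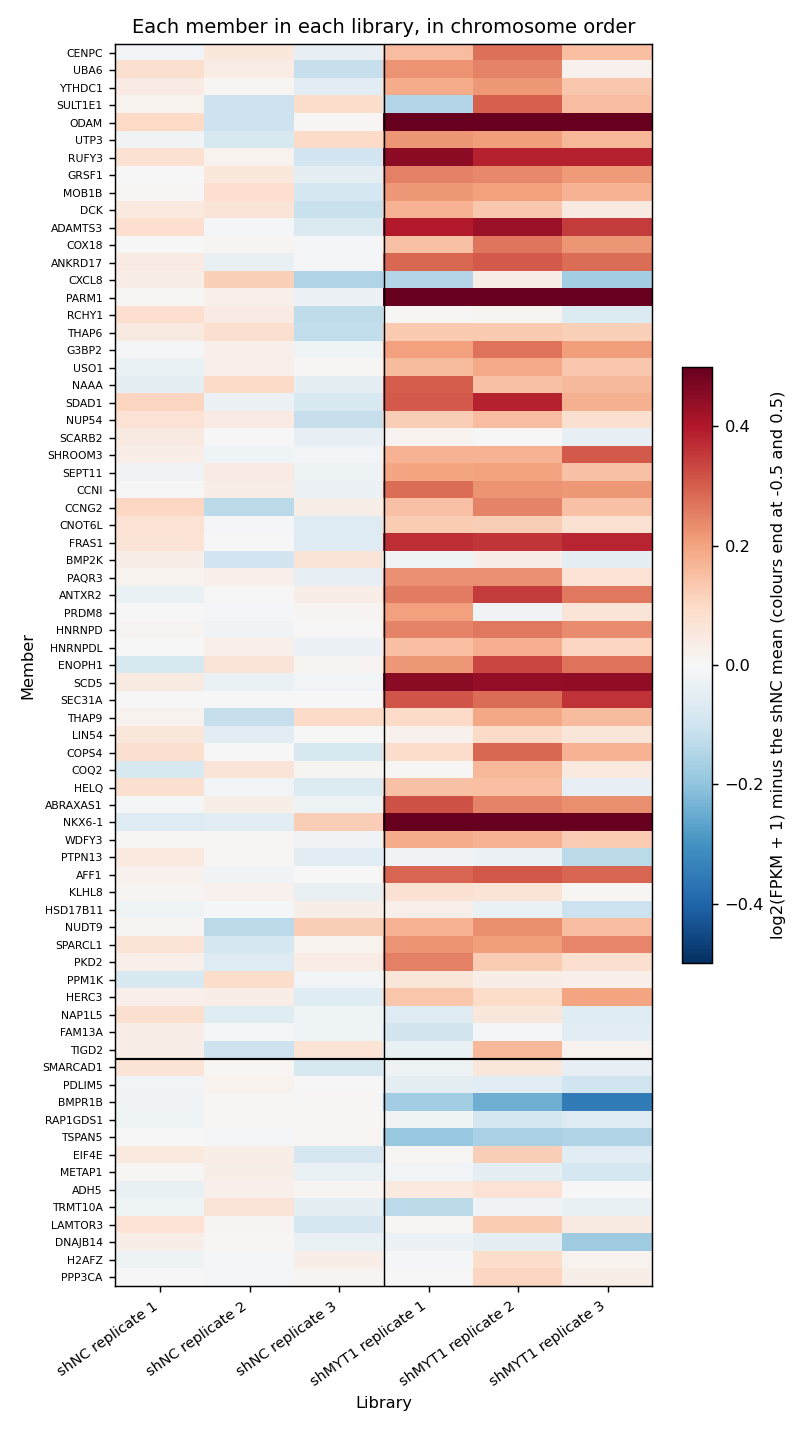
Each of the 71 members (rows, in chromosome order) in each of the 6 libraries (columns), as log2(FPKM + 1) minus the shNC mean, red above and blue below, with colours ending at -0.5 and 0.5. Red rows fill most of the shMYT1 columns above the black line, which marks the widest gap, and few below it.

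Most members before the gap differed by a modest and similar amount: 34 of the 58 had a ratio between 1.1 and 1.3. Only PARM1, NKX6-1 and ODAM had a ratio of 2 or more. PARM1, which encodes a mucin-like membrane protein, was at 0.277, 0.293 and 0.246 FPKM in shNC and at 2.34, 2.49 and 2.46 FPKM in shMYT1, a ratio of 8.92. NKX6-1, a homeodomain transcription factor gene of motor neuron progenitors and pancreatic beta cells, was at 0.272, 0.278 and 0.448 FPKM in shNC and at 1.59, 1.89 and 2.04 FPKM in shMYT1, a ratio of 5.53. ODAM, which encodes a secreted protein of enamel-forming cells, was at 1.70, 1.34 and 1.53 FPKM in shNC and at 6.38, 6.92 and 5.30 FPKM in shMYT1, a ratio of 4.07. In each of the 3 genes the groups were far apart.

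Few fragments lay behind the shNC values of these 3 genes: 26 to 31 per library for PARM1, 18 to 29 for NKX6-1 and 44 to 57 for ODAM, against 220 to 235, 98 to 112 and 147 to 199 in shMYT1. NKX6-1 reached the filter of 1 FPKM, with a mean of 1.09, and PARM1, with a mean of 1.35, only through the group in which they were high. On the log2(FPKM + 1) scale the differences were 1.51 (SE 0.10) for ODAM, 1.43 (SE 0.08) for PARM1 and 1.09 (SE 0.11) for NKX6-1. The next largest was 0.44 (SE 0.04) for SCD5. The size and order of these differences depend on the pseudocount: with 0.1 they were 1.95 for ODAM, 2.77 for PARM1 and 2.18 for NKX6-1, with 5 they were 0.78, 0.5 and 0.36, and with voom on recovered fragments 2.01, 3.14 and 2.47.

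**Figure D4:**
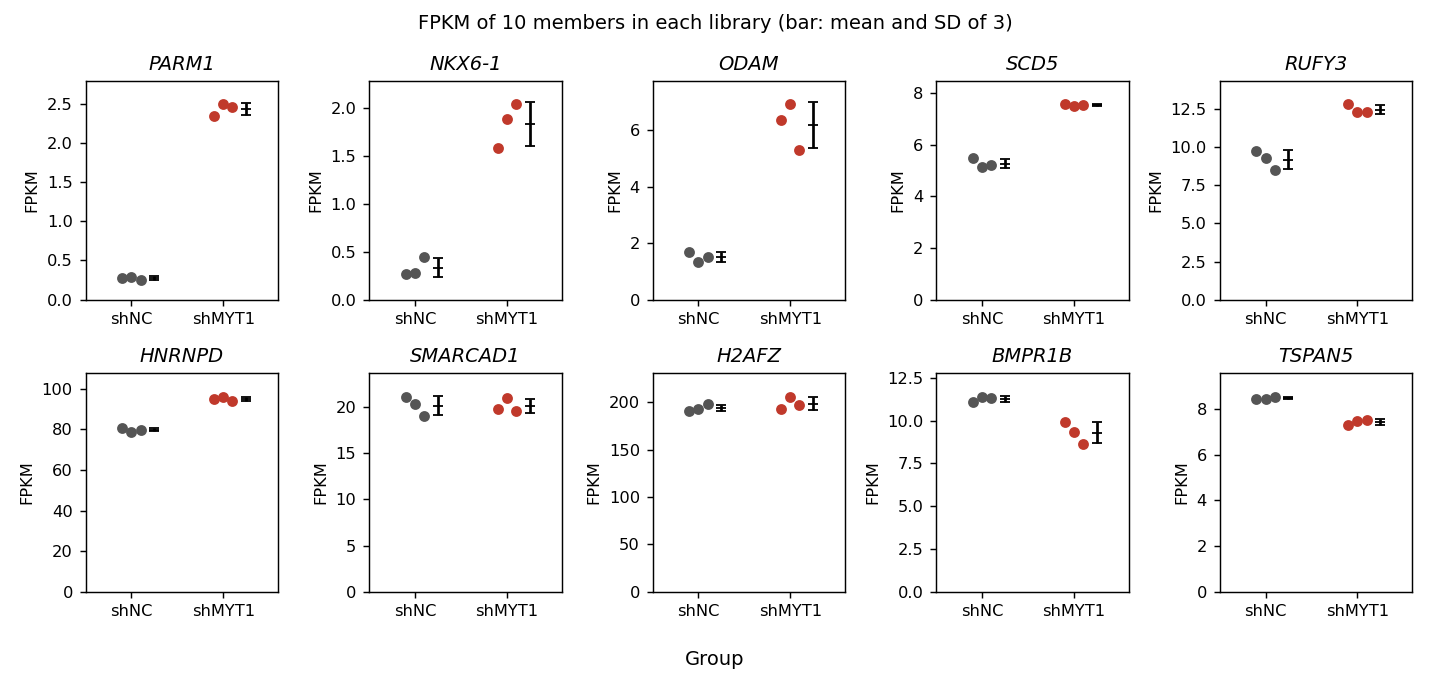
FPKM (vertical axes, from 0) of 10 members in each of the 3 shNC (grey) and 3 shMYT1 (red) libraries, with the mean and SD of each group as a black bar. PARM1, NKX6-1 and ODAM are separated by ratios of 4.07 to 8.92, SCD5, RUFY3 and HNRNPD by 1.19 to 1.43, SMARCAD1 and H2AFZ overlap between groups, and BMPR1B and TSPAN5 are lower in shMYT1.

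Promoter sequences are shown for ODAM and PARM1, with the largest positive differences on the log2(FPKM + 1) scale, and for BMPR1B, with the largest negative one on that scale. They run from 250 bases before to 50 bases after the RefSeq start (GRCh38.p14), 5′ to 3′ on the gene's strand, and capitals mark CG dinucleotides, which are dense in promoters of broadly used genes. ODAM lies at chr4:70195475-70195774 (plus strand), PARM1 at chr4:74932866-74933165 (plus strand) and BMPR1B at chr4:94757705-94758004 (plus strand).
ODAM: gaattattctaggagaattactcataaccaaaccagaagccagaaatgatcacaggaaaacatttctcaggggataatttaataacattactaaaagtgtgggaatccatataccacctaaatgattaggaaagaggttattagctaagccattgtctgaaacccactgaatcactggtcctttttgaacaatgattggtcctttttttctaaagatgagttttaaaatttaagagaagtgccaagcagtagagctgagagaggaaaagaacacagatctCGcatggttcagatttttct
PARM1: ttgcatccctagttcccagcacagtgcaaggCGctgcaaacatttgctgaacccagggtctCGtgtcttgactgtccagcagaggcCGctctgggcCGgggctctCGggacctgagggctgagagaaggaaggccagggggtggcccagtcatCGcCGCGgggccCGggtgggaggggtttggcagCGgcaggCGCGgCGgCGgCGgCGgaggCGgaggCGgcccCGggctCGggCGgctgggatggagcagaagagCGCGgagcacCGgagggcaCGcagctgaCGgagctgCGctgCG
BMPR1B: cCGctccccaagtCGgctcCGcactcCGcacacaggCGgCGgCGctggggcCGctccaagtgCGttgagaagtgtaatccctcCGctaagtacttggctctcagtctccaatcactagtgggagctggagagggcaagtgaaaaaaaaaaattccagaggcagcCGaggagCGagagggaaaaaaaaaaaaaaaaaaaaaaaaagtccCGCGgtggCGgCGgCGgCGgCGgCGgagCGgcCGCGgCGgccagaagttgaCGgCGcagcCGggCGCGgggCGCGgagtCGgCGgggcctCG
The ODAM window held 1 CG and 35.7% G or C, the lowest G or C content among the members matched. The PARM1 window held 28 CG and 71.3%, and the BMPR1B window 34 CG and 63.3%.

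Promoter windows were matched for 63 of the 71 members. Their median G or C content was 64.3%, close to the 65.7% of 9134 matched protein-coding genes that were tested. The letters AAGTT, the core motif known for MYT1 family proteins, occurred on either strand in 14 of 63 windows (22.2%), against 24.1% for the tested genes and 34.2% of all 27305 windows of the same length. BMPR1B held it 1 time, and ODAM and PARM1 held none. The letters CACGTG, an E-box bound by MYC family proteins, occurred in 11 of 63 (17.5%), against 10.5% for the tested genes and 7.4% of all windows. The letters TATAAA occurred in 6 of 63 (9.5%), against 5.1% and 12%. The motifs were counted separately, and bases at their ends can be shared. A match is a description of these letters only.

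Of 11 members in RNA binding and mRNA control, 7 were higher past the threshold and 0 lower, beside 11.9% and 12.3% of all genes tested, with a median log2 fold change of 0.18. Of all 71 members 40.8% were higher past the threshold. This count and those of the roles below are descriptions, and nothing about a role is read from them. HNRNPD, which binds AU-rich elements in mRNA, was at 80.6, 78.9 and 79.9 FPKM in shNC and at 94.8, 96.1 and 94.1 FPKM in shMYT1, a ratio of 1.19. Its neighbour and relative HNRNPDL was at 79.3, 80.6 and 77.5 FPKM in shNC and at 88.0, 89.9 and 85.4 FPKM in shMYT1, a ratio of 1.11. In both genes every shMYT1 library was above every shNC library. G3BP2, a stress granule protein gene, went from 28.9 ± 0.50 to 34.1 ± 0.91 FPKM (SD, n = 3 each), and UTP3, a factor of ribosome assembly, from 21.5 ± 1.42 to 24.8 ± 0.52 FPKM (SD, n = 3 each). YTHDC1, a nuclear reader of methylated RNA, had a ratio of 1.14. The 3 members of this group beyond the gap, the cap-binding factor gene EIF4E, METAP1 and TRMT10A, had ratios of 1.02, 0.964 and 0.93.

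The list of chromosome, chromatin, DNA repair and cell cycle genes held 23 members, of which 7 were higher and 0 lower past the threshold, beside 11.9% and 12.3% of all genes tested, with a median of 0.14. CCNI, a cyclin gene, was at 54.5, 55.9 and 53.5 FPKM in shNC and at 66.5, 64.0 and 63.7 FPKM in shMYT1, a ratio of 1.18 with no overlap. AFF1, a scaffold of transcription elongation, went from 12.1 ± 0.17 to 15.1 ± 0.13 FPKM (SD, n = 3 each), and ANKRD17 had a ratio of 1.24. CENPC, which encodes a kinetochore protein, went from 3.29 ± 0.14 to 3.91 ± 0.25 FPKM (SD, n = 3 each). H2AFZ, a histone variant gene and the most abundant member, lies beyond the gap and was at 191, 193 and 198 FPKM in shNC and at 193, 206 and 197 FPKM in shMYT1, which overlap. The chromatin remodeller gene SMARCAD1, the first member beyond the gap, had a ratio of 0.997.

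Vesicle traffic and lysosome genes numbered 9, with 4 higher and 0 lower past the threshold, beside 11.9% and 12.3% of all genes tested. RUFY3, which acts in axon growth, was at 9.72, 9.29 and 8.52 FPKM in shNC and at 12.8, 12.3 and 12.3 FPKM in shMYT1, a ratio of 1.36. SEC31A, a coat protein of vesicles leaving the endoplasmic reticulum, went from 17.3 ± 0.03 to 21.9 ± 0.65 FPKM (SD, n = 3 each), and the tethering factor gene USO1 from 16.5 ± 0.36 to 18.5 ± 0.38 FPKM (SD, n = 3 each). SCARB2, which encodes a lysosomal membrane protein, overlapped between groups, with a ratio of 0.994. RAP1GDS1, beyond the gap, had a ratio of 0.957, with all shMYT1 libraries below all shNC libraries. The margin was very small, as replicate 1 of both groups rounds to 11.5 FPKM, and the adjusted p was 0.245 by limma.

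Of 9 cytoskeleton, junction and matrix genes, 6 were higher and 1 lower past the threshold, beside 11.9% and 12.3% of all genes tested. ADAMTS3, a procollagen-cleaving protease gene, was at 10.8, 10.0 and 9.54 FPKM in shNC and at 13.6, 14.0 and 13.1 FPKM in shMYT1, a ratio of 1.34. FRAS1, a basement membrane protein gene, had a ratio of 1.33, and SEPT11, a septin gene, went from 23.4 ± 0.61 to 26.7 ± 0.60 FPKM (SD, n = 3 each). These genes lie before the gap. TSPAN5, a tetraspanin gene beyond the gap, was at 8.45, 8.44 and 8.54 FPKM in shNC and at 7.30, 7.47 and 7.53 FPKM in shMYT1, a ratio of 0.877 in the opposite direction. PDLIM5, also beyond the gap, had a ratio of 0.949 with no overlap.

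Kinase, phosphatase and signalling genes numbered 7, with 0 higher and 1 lower past the threshold, beside 11.9% and 12.3% of all genes tested. BMPR1B, a type I receptor gene for bone morphogenetic proteins, was at 11.1, 11.4 and 11.3 FPKM in shNC and at 9.89, 9.36 and 8.64 FPKM in shMYT1. It had the lowest ratio of the 71 members, 0.824, with a log2 fold change of -0.26 (SE 0.05). PPP3CA, the catalytic subunit gene of calcineurin and the last member, went from 20.4 ± 0.19 to 21.1 ± 0.87 FPKM (SD, n = 3 each), and PTPN13, a tyrosine phosphatase gene before the gap, from 11.1 ± 0.41 to 10.6 ± 0.52 FPKM (SD, n = 3 each). Both overlapped between groups.

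Metabolic genes were mostly before the gap as well. Of 6 in mitochondrial and intermediary metabolism, 2 were higher and 0 lower past the threshold, beside 11.9% and 12.3% of all genes tested. ENOPH1, an enzyme gene of methionine salvage, went from 31.8 ± 1.65 to 38.7 ± 1.64 FPKM (SD, n = 3 each), a ratio of 1.22. ADH5, the formaldehyde-clearing alcohol dehydrogenase gene beyond the gap, had a ratio of 1.03. Of 3 lipid and steroid genes, 1 was higher and 0 lower, to be read against the same shares. SCD5, a stearoyl-CoA desaturase gene, was at 5.47, 5.13 and 5.2 FPKM in shNC and at 7.55, 7.5 and 7.53 FPKM in shMYT1, a ratio of 1.43 and the fourth highest of the members. HSD17B11, a hydroxysteroid dehydrogenase gene, overlapped between groups at 26.7 ± 0.49 and 25.9 ± 1.24 FPKM (SD, n = 3 each).

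Of the secreted factors 16 were in the table within the interval, and only ODAM and CXCL8 were members. CXCL8, a neutrophil-attracting chemokine gene, was at 8.23, 8.78 and 7.11 FPKM in shNC and at 7.14, 8.21 and 7.01 FPKM in shMYT1, a ratio of 0.927 with overlapping groups. It was 1 of 8 members before the gap with a ratio below 1. The others were RCHY1, SCARB2, BMP2K, PTPN13, HSD17B11, NAP1L5 and FAM13A, with ratios of 0.951 to 0.994, and all 8 overlapped between groups. These 8 genes were named after their values were seen. The neuronal list gave 0 members, and UNC5C, which is on it, was left out by symbol.

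**Figure D5:**
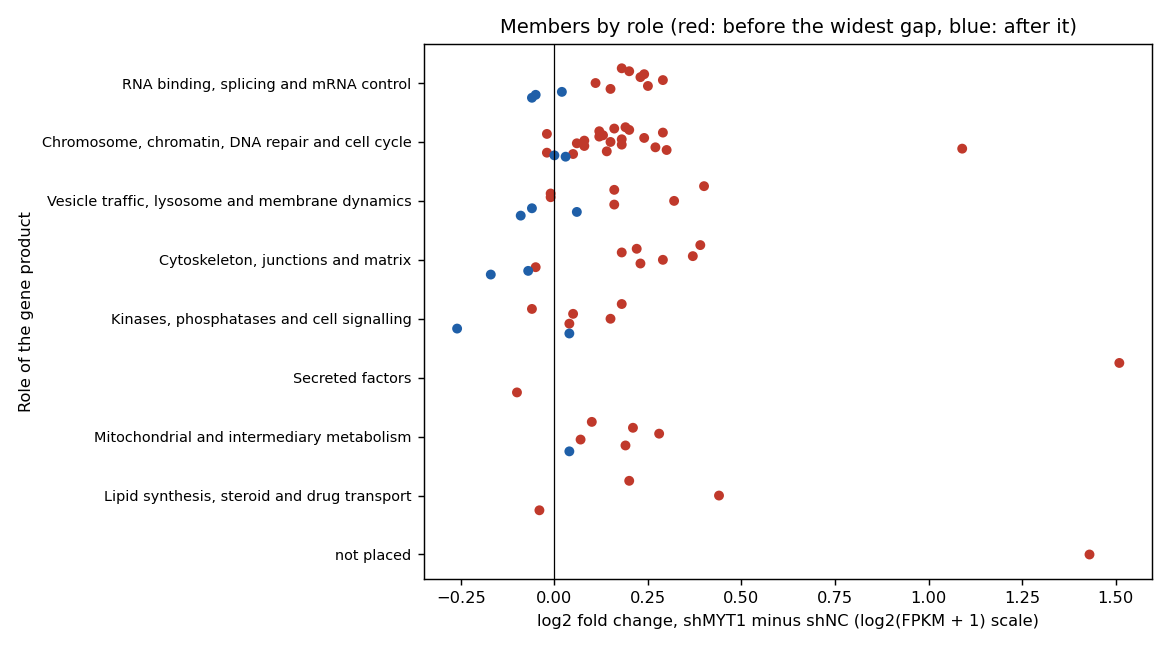
Log2 fold change (shMYT1 minus shNC, log2(FPKM + 1) scale, horizontal axis) of the 71 members by the role of their product, with 1 point per gene, spread vertically in chromosome order. Red points (before the widest gap) lie mostly right of 0 in each role with several genes, and blue points (after it) lie between -0.26 and 0.06.

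In 5 pairs of members the starts lay within 1 kb on opposite strands. The ratios were 1.18 for G3BP2 and 1.13 for USO1, 1.11 for HNRNPDL and 1.22 for ENOPH1, and 1.26 for SEC31A and 1.16 for THAP9. RCHY1 and THAP6 had 0.983 and 1.15, and FAM13A and TIGD2 had 0.951 and 1.05. The groups overlapped in THAP9, RCHY1, FAM13A and TIGD2. Over 5% of the exon bases of 9 members, RCHY1, THAP6, BMP2K, PAQR3, THAP9, ABRAXAS1, FAM13A, METAP1 and H2AFZ, are shared with a gene on the opposite strand, so their values are uncertain.

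At the lower end the first members were CENPC, UBA6 and YTHDC1, starting at 67.47, 67.61 and 68.31 Mb, with ratios of 1.19, 1.15 and 1.14. The nearest tested genes outside were NOA1, POLR2B and IGFBP7, starting at 56.96, 56.98 and 57.03 Mb, with ratios of 1.13, 1.05 and 0.624. At the upper end the last members were DNAJB14, H2AFZ and PPP3CA, with ratios of 0.928, 1.02 and 1.03. Outside it lay SLC39A8, NFKB1 and MANBA, starting at 102.25, 102.50 and 102.63 Mb, with ratios of 0.811, 1.02 and 1.22. Just above the filter of 1 FPKM were NKX6-1, PPM1K and BMP2K, with ratios of 5.53, 1.05 and 0.981, and just below it MTHFD2L, GPRIN3 and HPSE, with means of 0.895, 0.877 and 0.735 FPKM and ratios of 1.02, 0.785 and 0.843.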

How the data were processed

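RNA-seq covered 6 libraries of SK-N-BE(2), 3 shNC and 3 shMYT1. The authors deposited 1 table of FPKM. HISAT2 2.0.5, featureCounts 1.5.0-p3 and hg38 were used, per the submitters' processing notes. Which annotation and strand setting they chose is not stated in the labels. Symbols, types and starts came from GENCODE 29. Fragments were recovered from FPKM and exon length, whole within 0.01 in all libraries for 95.4% of 32301 IDs and for 68 of the 71 members, and gave 18.16 to 21.68 M per library. Exons of 19 members overlap an opposite-strand gene and those of 11 a same-strand gene, which leaves the origin of shared fragments uncertain.

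The 14106 genes averaging 1 FPKM or more entered a limma fit (version 3.58.1, run in R 4.3.3) of log2(FPKM + 1), a scale that understates changes of low genes, with a variance trend and Benjamini-Hochberg adjustment over all of them, and passed at 0.05. The fit was tested on simulated data. The members, role lists, marker lists and named genes were chosen with earlier results of these data known. The rule named MYT1, 1 gene that is not reported here, the 12 most abundant members, the 10 largest positive and 6 largest negative differences without overlap (4 negative ones were found), 2 members per role list, the genes at each edge and head-to-head pairs. Further genes named only to place a result are additional to it. Promoters came from RefSeq (GRCh38.p14).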

Additional observations from a re-analysis of the deposited data

How the results depend on the processing

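The median log2 fold change of the 71 members was 0.15 and stayed positive in every setting tried. The interval was chosen on these same values, and the gap after they were seen. The medians and counts below therefore describe how far the choice depends on the settings and carry no test. It was 0.19 with a pseudocount of 0.1, 0.09 with a pseudocount of 5, 0.12 with libraries rescaled to a common FPKM total, 0.18 with voom on recovered fragments (68 members), 0.12 over the members with a mean of 1 to 3 FPKM, and 0.13 to 0.17 when each library was left out in turn. Over the 15 alternative fits the members before the widest gap had medians of 0.10 to 0.20 and those after it -0.08 to 0.00, where 0.00 is for the 11 left at a minimum of 5 FPKM and the highest with all 13 is -0.02. The count of members higher past the threshold, 29, ran from 20 to 35, and that of members lower was 2 throughout. At a minimum of 5 FPKM it was 20 of the 43 members tested, where 2612 genes passed in all. With voom it was 35 of 68, where 4131 genes passed in all. It was also 20 without shMYT1 replicate 1 or 2, where 2196 and 2632 genes passed. The count over all genes, 3420, was 2038 to 3048 when 1 library was left out; it moved by over 1.5 times without shNC replicate 1 (2195), shNC replicate 2 (2038) or shMYT1 replicate 1 (2196). These fits rest on 5 libraries. The MYT1 log2 fold change ran from -0.23 to -0.30 with 1 library left out, and was -0.33 with a pseudocount of 0.1 and -0.16 with 5. MYT1 has no value with a minimum of 5 FPKM, where its mean falls short, or with voom, where its fragments were not whole. Rescaling to a common total made 36.4% of the genes past the threshold higher in shMYT1, against 49.2%, and moved the median of all genes to -0.04. With the replicate number as a block (replicate block), 3381 genes and 26 and 2 members passed, and the members' median was 0.15. Same-numbered libraries correlated at 0.013 to 0.043 in their deviations from the group means, and differently numbered ones at -0.039 to 0.008. The same-numbered values were the higher but all were small, and whether the numbers pair the samples was not tested. Depth limits the low members: the fewest fragments of a member in a library were 18.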

Other observations

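Genes of the same interval outside the 71 members gave further values. Of 63 protein-coding IDs with a mean under 1 FPKM, 20 had a mean of at least 0.1 FPKM, and in 6 of those every shMYT1 library lay above every shNC library, against 2 below. Over all 63 the counts were 12 above and 5 below, beside 20.5% and 21.8% of the 14106 genes tested. The genes tested all had a mean of at least 1 FPKM, so these shares come from a higher range of level than the 63. The genes named next were picked after their values were seen. SULT1B1, a sulfotransferase gene, was at 0.229 ± 0.017 FPKM in shNC and 0.729 ± 0.025 FPKM in shMYT1 (SD, n = 3 each). FDCSP, which encodes a small secreted peptide, was at 0.0823, 0.589 and 0.253 FPKM in shNC and at 0.620, 1.2 and 0.696 FPKM in shMYT1. FGF5, a fibroblast growth factor gene, was at 0.134 ± 0.020 FPKM in shNC and 0.325 ± 0.056 FPKM in shMYT1 (SD, n = 3 each). The CXC chemokine genes CXCL1, CXCL2 and CXCL3, close neighbours of CXCL8, averaged 0.0187 to 0.0741 FPKM.

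The 3 genes left out by symbol had ratios of mean FPKM of 1.29 for MRPL1, 1.13 for MRPS18C and 1.13 for UNC5C, a netrin receptor gene. The antisense gene AC106881.1, which starts beyond the gap and overlaps opposite-strand exons by 78 bases, was at 7.93, 8.18 and 7.28 FPKM in shNC and at 9.41, 10.5 and 8.73 FPKM in shMYT1. Of 14 genes of the interval that are not protein-coding and had a mean of at least 1 FPKM, the 11 before or within the gap had a median ratio of 1.17 and the 3 after it 1.00. THAP9-AS1, the antisense neighbour of THAP9, was at 11.2, 11.5 and 10.4 FPKM in shNC and at 13.3, 14.3 and 12.5 FPKM in shMYT1.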
